A study of Mus musculus with 6 samples.

Results

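The genes described here are the transferrin receptor gene *Tfrc* and 9 further genes of cellular iron handling, *Trf*, *Slc11a2*, *Slc40a1*, *Fth1*, *Ftl1*, *Aco1*, *Ireb2*, *Steap3* and *Ncoa4*. They were found by gene symbol among the 23420 genes listed for embryonic mouse lung, and all 10 were present. RNA-Seq was performed on whole lungs of E11.5dpc embryos from 3 control pools (labelled Raptorf/+; ShhCre/+) and 3 mutant pools (labelled Raptorf/f; ShhCre/+), each of 3 or 4 lungs of the same genotype. *Rptor* encodes Raptor, a defining subunit of the kinase complex mTORC1. Cre was expressed from the *Shh* locus, which is active in the lung epithelium, so that the floxed *Rptor* alleles were targets of deletion in epithelium while the surrounding mesenchyme, blood cells and vessels kept them. Both groups carried the *ShhCre* allele, and the epithelium of control lungs had 1 floxed *Rptor* allele exposed to Cre. The comparison asked which transcripts differ in lungs that lack mTORC1 in the epithelium. The 10 genes were selected on their function with the normalized counts of the control and mutant pools, and the differences between them, already known. Their values in this comparison are therefore given as a description, without p-values.

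Cells take up iron bound to transferrin, the protein product of *Trf*, through the transferrin receptor. In the endosome the metalloreductase STEAP3 reduces the iron and the transporter DMT1, encoded by *Slc11a2*, carries it into the cytosol. Iron that is not used is stored in a shell of ferritin heavy and light chains (*Fth1* and *Ftl1*), released again when NCOA4 delivers ferritin to the lysosome, or exported by ferroportin (*Slc40a1*). The balance is set by the iron regulatory proteins IRP1 (*Aco1*) and IRP2 (*Ireb2*), which bind a hairpin called the iron responsive element (IRE) when iron is scarce. Binding in a 3′ UTR, as in *Tfrc*, protects the transcript from decay, and binding in a 5′ UTR, as in the ferritin mRNAs, blocks translation. Erythroid cells, which make haem, are known for very high transferrin receptor levels.

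The hairpins of these transcripts are printed here because *Tfrc* and *Ftl1*, the 2 of the 10 genes with the largest log2 fold changes, carry them at opposite ends. Protein-coding transcripts of GENCODE M21 (GRCm38) were searched on the transcribed strand for a loop of the letters CAGTGN in a UTR, with all 5 bases before the loop able to pair with the 5 bases after it and an unpaired C just outside this stem on the 5′ side. Each match is shown 5′ to 3′ as 29 bases, with the 6 bases of the loop in capitals.
Tfrc hairpin 1, 3′ UTR, plus strand, chr16:32631219-32631247: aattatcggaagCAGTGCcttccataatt
Tfrc hairpin 2, 3′ UTR, plus strand, chr16:32631598-32631626: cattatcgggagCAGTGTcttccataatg
Tfrc hairpin 3, 3′ UTR, plus strand, chr16:32631663-32631691: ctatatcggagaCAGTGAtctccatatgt
Tfrc hairpin 4, 3′ UTR, plus strand, chr16:32631710-32631738: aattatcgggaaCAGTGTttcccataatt
Fth1, 5′ UTR, plus strand, chr19:9982732-9982760: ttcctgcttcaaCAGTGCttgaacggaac
Ftl1, 5′ UTR, minus strand, chr7:45459779-45459807: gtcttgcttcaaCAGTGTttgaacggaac
Slc40a1, 5′ UTR, minus strand, chr1:45925465-45925493: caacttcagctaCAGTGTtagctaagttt

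The 4 matches in *Tfrc* lay within 520 bases of its 3′ UTR. Hairpins 1 and 2 were identical at 25 of 29 bases, whereas hairpins 2 and 3 were identical at 18. The elements of *Fth1* and *Ftl1* differed more from those of *Tfrc*, with 9 to 13 identical bases, and were nearly the same as each other, with 26 of 29. A match was found in the 3′ UTR of 127 of 21039 genes (0.604%) and in the 5′ UTR of 30 of 20916 genes (0.143%). *Tfrc* was the 1 gene with more than 1 match in the same 3′ UTR. Of its 2 protein-coding transcripts with an annotated 3′ UTR, 1 held the matches, and a count per gene does not separate such forms. No match to these letters was found in the UTRs of *Slc11a2*, *Trf*, *Aco1*, *Ireb2*, *Steap3* or *Ncoa4*.

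The deposited values are normalized counts, in which reads per gene have been scaled by library, and they add up to 20705058 to 20865998 in a pool. Values of mutant and control pools were compared on the scale of log2(normalized count + 1) with limma over 17168 genes, which understates the change of genes with low counts. Of these, 86 genes (0.501%) were called at an adjusted p under 0.05. *Rptor* itself, counted over the whole gene in all cells of the lung, was at 2126 to 2279 in control and 2023 to 2148 in mutant pools, with overlapping groups (log2 fold change -0.06, limma adjusted p = 0.584). In RNA from whole lungs, fewer cells of a type and less RNA per cell cannot be told apart. The epithelial identity of part of the tissue was seen in the epithelial marker genes, of which 20 of 20 had counts in every pool, among them *Nkx2-1*, the transcription factor that defines lung epithelium. Their summed normalized counts were 17910 to 22194 in control and 14283 to 15404 in mutant pools.

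*Tfrc* (chromosome 16, 32608920 to 32632794 in GRCm38) was the gene of the 10 with the clearest difference between the groups. Normalized counts of 2189, 2159 and 2442 were found for control pools 1, 2 and 3, and of 1618, 1523 and 1508 for mutant pools 1, 2 and 3. No mutant pool reached the lowest control pool, and the gap between the groups, from 1618 to 2159, was wider than the spread within either. The mean was 2264 ± 155 (SD, n = 3) in control and 1550 ± 60.1 (SD, n = 3) in mutant pools. On the log2 scale mutant pools differed from control pools by -0.54 ± 0.06 (standard error), a change in level of -31.5%. With any 1 pool removed it ranged from -0.58 to -0.49, so no single pool set its size. Of the 10 genes, 1 (*Tfrc*) was among the 86 called genes (background 0.501%), and nothing is read from this count, which rests on the values the genes were chosen with. *Tfrc* was among the called genes in 10 of 14 alternatives, which repeat the same comparison, so this tally lends no support either. It was not called without control pool 1, without mutant pool 3, without the trend in limma or without a filter.

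The partners of the receptor in the endosome were lower as well, by less. *Slc11a2*, which encodes the transporter DMT1, had 943, 993 and 989 normalized counts among controls, against 908, 807 and 877 among mutants. All 3 mutant pools lay below all 3 control pools, though mutant pool 1 was close to control pool 1. The log2 fold change was -0.18 (standard error 0.06). *Steap3*, the endosomal reductase, had 213, 198 and 206 among controls, against 180, 157 and 173 among mutants. Again the groups did not overlap, and the log2 fold change was -0.28 (standard error 0.10). *Trf*, which encodes the ligand transferrin, differed from its receptor. The control pools, at 309, 213 and 308, spanned the mutant pools, at 276, 257 and 296, and the means of 277 and 276 were nearly equal. The log2 fold change of 0.02 (standard error 0.14) changed sign when control pool 2 or mutant pool 3 was left out, with leave-one-out values from -0.16 to 0.11.

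**Figure D1:**
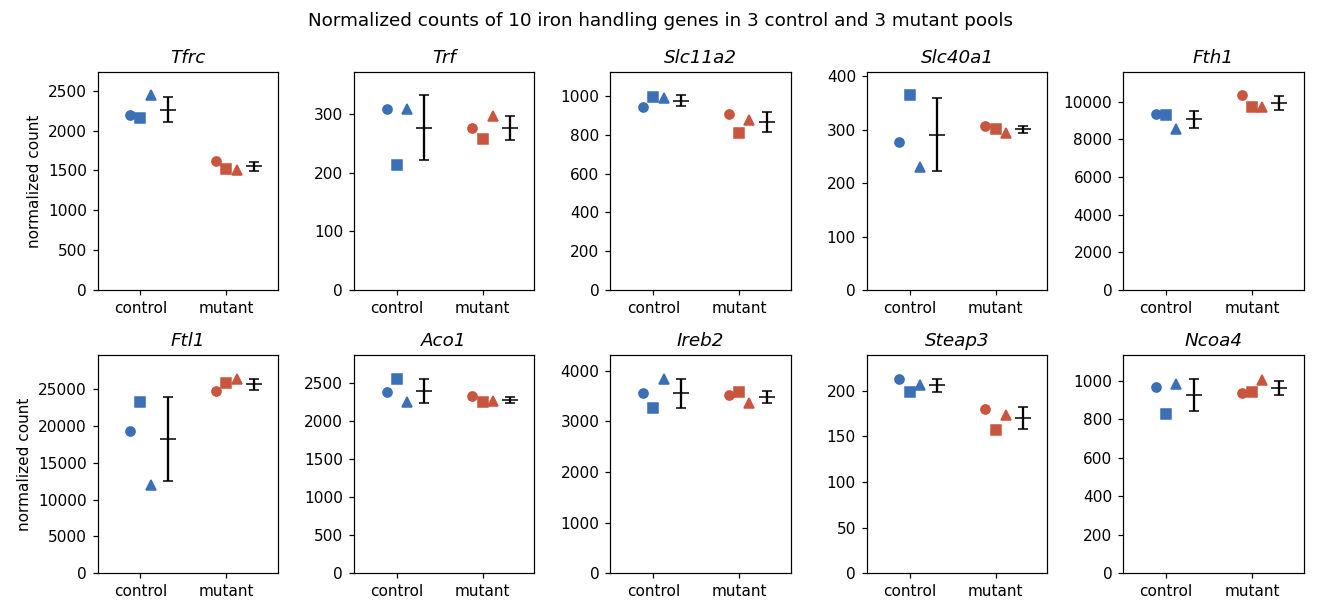
Normalized counts (vertical axes, from 0) of the 10 genes in the 3 control pools (blue) and the 3 mutant pools (red). Circles, squares and triangles are pools 1, 2 and 3, and the black dash with its bar is the mean ± SD. *Tfrc*, *Slc11a2* and *Steap3* are lower and *Fth1* and *Ftl1* higher in every mutant pool than in any control pool, and control pool 3 is lowest for *Ftl1* at 11953.

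The ferritin genes were higher in the mutant pools, opposite to the receptor. *Fth1*, the heavy chain that oxidises iron on entry into the shell, had 9323, 9309 and 8544 normalized counts among controls, against 10337, 9719 and 9690 among mutants. The groups did not overlap, and the log2 fold change was small, at 0.13 (standard error 0.05). *Ftl1*, the light chain that helps to nucleate the iron core, had 19329, 23185 and 11953 among controls, against 24754, 25780 and 26285 among mutants. Mutant pools varied little, at 25607 ± 780 (SD, n = 3), whereas control pools varied widely, at 18156 ± 5707 (SD, n = 3), with control pool 3 far below the others. The log2 fold change of 0.55 (standard error 0.18) was about as large as that of *Tfrc*, but it was 0.27 without control pool 3 and 0.75 without control pool 2. GENCODE M21 names 2 further genes as pseudogene copies of *Ftl1*, neither of which is listed in the table, so reads could be shared between copies and the count of *Ftl1* is uncertain.

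*Ncoa4*, the receptor that carries ferritin to the lysosome, had 969, 830 and 984 normalized counts among controls, against 937, 945 and 1006 among mutants. The groups overlapped, and the log2 fold change was 0.06 (standard error 0.07). *Slc40a1*, the exporter ferroportin, had 277, 365 and 231 among controls, against 307, 301 and 294 among mutants. The mutant pools lay within the range of the control pools, the log2 fold change was 0.07 (standard error 0.14), and without control pool 3 it was -0.08. For neither gene was the difference larger than the spread between pools.

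The genes for the regulatory proteins themselves were close to equal in the groups. *Aco1*, which encodes IRP1, a protein that is a cytosolic aconitase when it holds an iron-sulphur cluster, had 2377, 2558 and 2251 normalized counts among controls, against 2326, 2250 and 2257 among mutants. *Ireb2*, which encodes IRP2, had 3561, 3265 and 3843 among controls, against 3511, 3572 and 3354 among mutants. The groups overlapped for both genes, with log2 fold changes of -0.07 (standard error 0.05) and -0.03 (standard error 0.06). *Fbxl5*, the iron-sensing subunit of the ligase that degrades the regulatory proteins, was at 1392 ± 49.9 (SD, n = 3) in control and 1397 ± 23.6 (SD, n = 3) in mutant pools (limma adjusted p = 0.972). The activity of these proteins is set after transcription and was not measured here.

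Of the 10 genes, 5 had groups that did not overlap, as did 20.2% of all tested genes, and nothing is read from this count because the comparison was known when the genes were chosen. *Tfrc*, *Slc11a2* and *Steap3* of these were lower and *Fth1* and *Ftl1* higher in mutant pools. The 5 others, *Trf*, *Slc40a1*, *Aco1*, *Ireb2* and *Ncoa4*, had absolute log2 fold changes of at most 0.07. The median log2 fold change of the 10 was -0.01, and that of all tested genes was -0.00212.

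**Figure D2:**
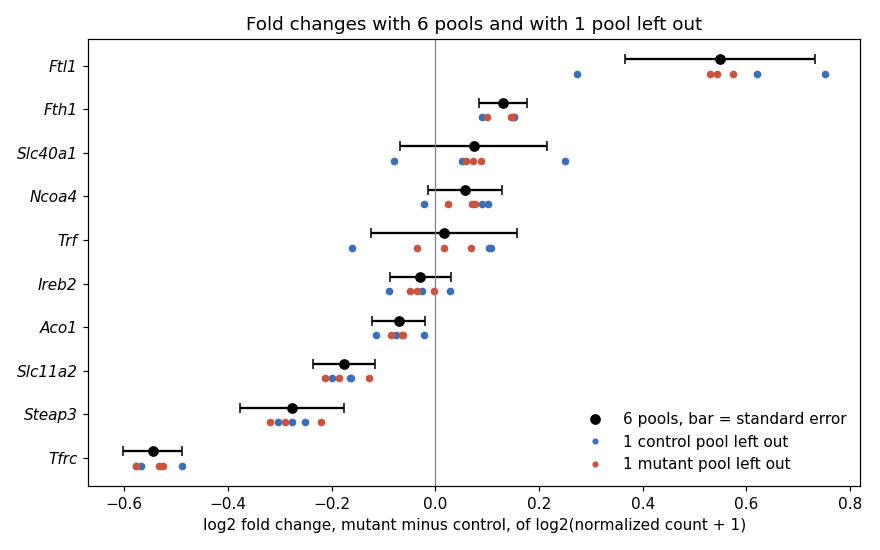
Log2 fold change of each of the 10 genes (horizontal axis, mutant minus control, on log2(normalized count + 1)), ordered by size. Black points use all 6 pools, with the standard error as the bar, and small points leave out 1 control pool (blue) or 1 mutant pool (red). *Tfrc* stays between -0.58 and -0.49, while *Ftl1* ranges from 0.27 to 0.75 with the control pool left out.

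Divided by the length of the exons, to compare levels between genes, the ferritin transcripts were the most abundant of the 10. In control pools the light chain had 13549 normalized counts per kb and the heavy chain 2611. Next came *Aco1* with 533, *Ireb2* with 375 and *Tfrc* with 366 normalized counts per kb, and the lowest were *Steap3* with 36.0 and *Slc40a1* with 32.3. In mutant pools *Tfrc* was at 251 normalized counts per kb, below *Ireb2* at 367 and above *Slc11a2* at 136. The lengths join the exons of all annotated transcripts of a gene, which lowers the values of genes with many forms.

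The ratio of *Tfrc* to ferritin within a pool is free of the scaling between libraries. The log2 ratio of *Tfrc* to *Fth1* for control pools 1, 2 and 3 was -2.09, -2.11 and -1.81, and for mutant pools 1, 2 and 3 it was -2.67, -2.67 and -2.68. The mutant pools were nearly identical and all below the control pools, and control pool 3, with the highest *Tfrc* and the lowest *Fth1*, stood apart from the other control pools. The mean was -2.00 ± 0.17 (SD, n = 3) in control and -2.68 ± 0.0055 (SD, n = 3) in mutant pools, a difference of -0.68 that was -0.58 without control pool 3. The log2 ratio of *Ftl1* to *Fth1* overlapped between the groups, from 0.48 to 1.32 in control and from 1.26 to 1.44 in mutant pools.

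Since *Tfrc* is high in erythroid cells, it was set beside the erythroid genes of the same pools. The summed normalized counts of 5 erythroid genes other than globins (*Klf1*, *Gata1*, *Slc4a1*, *Hemgn* and *Alas2*) for control pools 1, 2 and 3 were 4611, 3713 and 6196, and for mutant pools they were 4957, 4150 and 4705. Control pool 3 had both the highest erythroid sum and the highest *Tfrc*. The mutant pools had erythroid sums above that of control pool 2 and *Tfrc* counts below it. The part of erythroid cells in the *Tfrc* difference was not tested. Of the 15 listed erythroid genes, 9 were tested, and 0 of these reached an unadjusted p under 0.05 in limma and 0 an adjusted p under 0.05. The adult alpha globins *Hba-a1* and *Hba-a2* were listed at 0 in all pools, which does not show that their transcripts were absent. Reads shared between gene copies could go uncounted, as raised for *Ftl1*, and this was not tested. The embryonic globin *Hbb-y* had 49708 to 62073. The log2 ratio of *Tfrc* to *Slc4a1*, the anion exchanger of red cells, was -0.70 to -0.13 in control and -1.03 to -0.84 in mutant pools, without overlap.

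**Figure D3:**
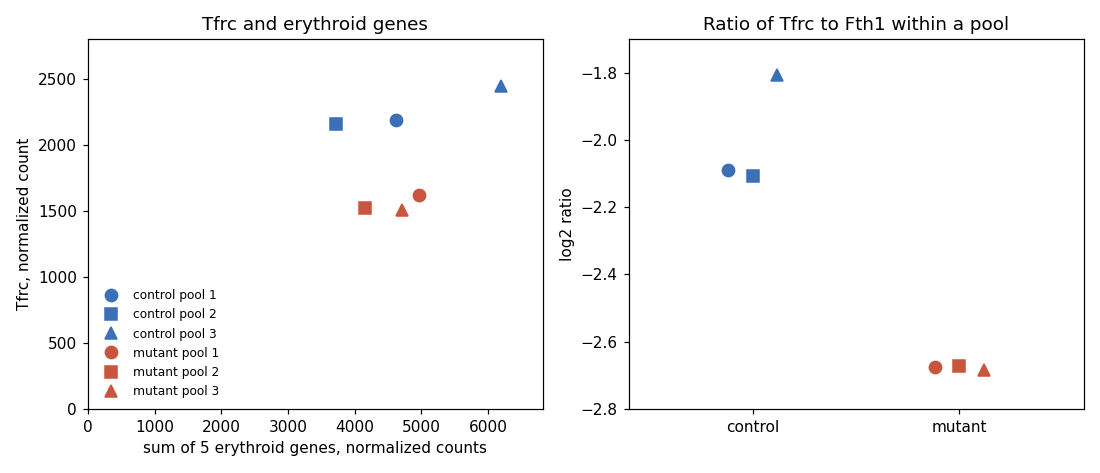
Left, the normalized count of *Tfrc* (vertical axis) against the summed normalized counts of 5 erythroid genes (horizontal axis) in each pool. Right, the log2 ratio of *Tfrc* to *Fth1* in each pool. Mutant pools (red) lie between 1508 and 1618 for *Tfrc* at erythroid sums of 4150 to 4957, and their ratios lie between -2.68 and -2.67.

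Most markers of epithelium were lower in mutant pools, while genes of proliferating cells differed little, with a median log2 fold change of -0.05. Of 20 epithelial genes, 17 were lower and 1 was higher in mutant pools at an unadjusted p under 0.05 (13.6% of all tested genes in either direction), and 7 were lower at an adjusted p under 0.05, with a median log2 fold change of -0.43 for the list. These genes ranged widely, from -0.97 in *Cdh1* (limma adjusted p = 0.00728) to 0.44 in *Krt19* (limma adjusted p = 0.0734), with -0.25 in *Nkx2-1*. The *Tfrc* value of -0.54 lies inside this wide range, which says little about it. The part of the epithelium in the *Tfrc* difference was not tested. Summed proliferation genes were 54546 to 56869 in control and 53187 to 54088 in mutant pools, a small difference without overlap, with 3 of 8 genes lower at an unadjusted p under 0.05 and 0 at an adjusted p under 0.05 in limma. Macrophages, which recycle iron, had a summed level of 2412 to 3448 in control and 3136 to 3275 in mutant pools, with control pool 3 the lowest, and 0 of 11 tested genes passed at an unadjusted or an adjusted p under 0.05 in limma. Hepatocyte genes, a source of transferrin mRNA, summed to 318 to 487 in control and 284 to 346 in mutant pools, and cardiac genes to 607 to 845 and 584 to 667. Control pool 3 was lowest of the control pools for the epithelial, macrophage and cardiac sums, for *Ftl1*, *Fth1* and *Slc40a1*, and highest for the erythroid sum and *Tfrc*. The part of this pool's makeup in those values was not tested.

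The wider iron pathway was taken from 7 gene lists drawn up by function, with earlier results of these data known. The shares and p-values given for them are therefore not those of a blind choice. The lists covered iron uptake, storage and export, the control of the regulatory proteins and mRNAs known for an IRE. They also covered the hepcidin axis, haem and iron-sulphur cluster assembly. Apart from the 10 genes they held 88 genes, of which 86 were in the table and 83 were tested. At an adjusted p under 0.05, 1 of the 83 was higher and 0 were lower (0.186% and 0.315% of all tested genes). At an unadjusted p under 0.05, 5 were higher and 3 lower (6.67% and 6.89% of all tested genes), 9.64% of the list beside 13.6% of all tested genes. The median log2 fold change of the 83 was 0.01. Most of the pathway thus showed no difference that passed the test at this number of pools.

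The called gene was *Scara5* (chromosome 14, 65666403 to 65764826 in GRCm38), which encodes a scavenger receptor that binds ferritin and takes up iron without transferrin. Control pools had 191, 213 and 170 normalized counts, whereas mutant pools had 292, 303 and 287. The lowest mutant pool was well above the highest control pool, and mutant pools varied little. The mean of *Scara5* was 191 ± 21.4 (SD, n = 3) among controls and rose among mutants to 294 ± 8.31 (SD, n = 3). On the log2 scale the rise was 0.62 ± 0.10 (standard error), and limma gave an adjusted p of 0.0385. The adjusted p stayed under 0.05 in 2 of 6 leave-one-out fits, those without control pool 2 or control pool 3 (range over the 6 from 0.0114 to 0.245), and in 6 of the 8 other alternatives (0.0117 to 0.208), and the log2 fold change ranged from 0.54 to 0.70. The remaining 13 tested genes of the uptake list, which include *Tfr2*, the second transferrin receptor, the zinc and iron transporters *Slc39a8* and *Slc39a14* and the reductases *Steap1*, *Steap2*, *Steap4* and *Cybrd1*, had 0 genes at an unadjusted or adjusted p under 0.05 in limma.

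Among storage and export genes, the 4 tested genes besides the ferritins, *Ncoa4* and *Slc40a1* were all slightly higher in the mutant pools, and 1 of them reached an unadjusted p under 0.05. This was *Pcbp2*, a chaperone that hands iron to ferritin, at 10539 ± 169 (SD, n = 3) in control and 11213 ± 296 (SD, n = 3) in mutant pools (log2 fold change 0.09, limma adjusted p = 0.326). The median log2 fold change of these 4 was 0.08, beside -0.00212 for all tested genes. The ferroxidase *Heph* was at 1517 ± 48.2 (SD, n = 3) and 1592 ± 36.6 (SD, n = 3), and its limma adjusted p was 0.554.

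Of the 6 tested transcripts on the IRE list outside the 10 genes, 1 was higher and 0 were lower at an unadjusted p under 0.05, and 0 passed the adjusted threshold in limma. Those with the 5′ UTR hairpin printed above had log2 fold changes of 0.55 in *Ftl1*, 0.13 in *Fth1* and 0.07 in *Slc40a1*, and *Alas2*, the erythroid enzyme of haem synthesis, had 0.06. *Tfrc*, with its hairpins in the 3′ UTR, had -0.54. *Slc11a2* is known for an element in the 3′ UTR of some of its forms and had -0.18. Other transcripts known for an IRE were near 0, with -0.06 in *Pfn2*, -0.08 in *Cdc14a* and 5.8e-05 in *Cdc42bpa*. *Epas1*, which encodes the hypoxia-inducible factor HIF-2α, had 511, 576 and 535 normalized counts among controls, against 696, 658 and 666 among mutants. Its groups did not overlap and the log2 fold change was 0.32 (standard error 0.07), but the adjusted p of 0.0766 in limma missed the threshold. Over the 14 alternatives it ranged from 0.0307 to 0.341, and it passed without control pool 2 (0.0452), without control pool 3 (0.033) and with edgeR (0.0307).

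**Figure D4:**
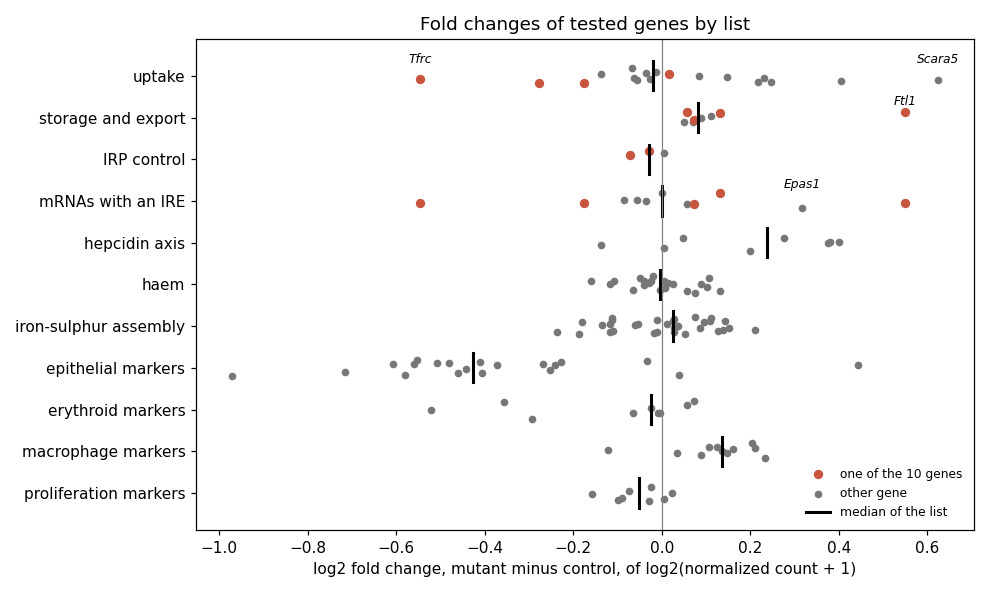
Log2 fold change (horizontal axis, mutant minus control, on log2(normalized count + 1)) of each tested gene, by list. Red points are among the 10 genes, grey points are other genes and black bars are list medians. The iron lists centre near 0 apart from the hepcidin axis, most of whose genes have low counts, while *Tfrc* at -0.54 and *Scara5* at 0.62 lie at the ends of the uptake list and the epithelial markers centre at -0.43.

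Users of iron showed small differences. Of 21 tested haem genes, 1 was higher and 1 lower at an unadjusted p under 0.05. *Pgrmc1*, a haem-binding protein, was at 3050 ± 67.8 (SD, n = 3) in control and 3339 ± 24.0 (SD, n = 3) in mutant pools (log2 fold change 0.13, limma adjusted p = 0.176). *Abcb10*, a mitochondrial transporter needed for haem synthesis in red cells, was at 961 ± 62.3 (SD, n = 3) and 859 ± 42.4 (SD, n = 3) (log2 fold change -0.16, limma adjusted p = 0.31). The enzymes of the pathway from *Alad* to *Fech* and the haem oxygenases *Hmox1* and *Hmox2* did not reach an unadjusted p under 0.05. For the haem list as a whole the share at that threshold was 9.52%, with a median log2 fold change of -0.0049.

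Of 31 genes of iron-sulphur cluster assembly, 1 was higher and 2 were lower at an unadjusted p under 0.05, a share of 9.68%. *Ciapin1*, an electron carrier of the cytosolic assembly machinery, had 2012, 1864 and 1667 normalized counts among controls, against 1470, 1638 and 1582 among mutants, without overlap. The limma adjusted p was 0.178 at a log2 fold change of -0.24 (standard error 0.07), and without control pool 3 these were 0.0113 and -0.31. It also passed with edgeR (0.00879) and DESeq2 (0.000939) on the 5 libraries that leave out the same pool. Over the other fits that left out 1 pool its limma adjusted p was 0.198 to 0.478. *Mms19*, which targets clusters to DNA repair and replication enzymes and was named after its value was seen, had 1673 ± 119 (SD, n = 3) among controls and 1469 ± 72.1 (SD, n = 3) among mutants (log2 fold change -0.19, adjusted p = 0.219 in limma). *Lyrm4*, a partner of the cysteine desulphurase NFS1, had 249 ± 9.30 (SD, n = 3) among controls and 289 ± 24.4 (SD, n = 3) among mutants (log2 fold change 0.21, adjusted p = 0.352 in limma). The hepcidin axis, which governs iron export in the whole body, had 8 tested genes and 0 at an unadjusted or adjusted p under 0.05 in limma. The hormone gene *Hamp* itself had a normalized count of 0.98 to 3.93 in each pool.

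Across the 6 pools, the log2 values of 11457 genes with a mean normalized count of at least 100 were set beside those of *Tfrc*. The 5 genes with the highest Pearson correlation over the 6 pools were *Bcl2l13* (r = 0.997), *Kntc1* (r = 0.996), *Asxl2* (r = 0.995), *Aif1l* (r = 0.995) and *Hjurp* (r = 0.994). These values describe 6 libraries in 2 groups and share the group difference, and among so many genes high values arise readily. *Hjurp* had 529, 512 and 589 among controls, against 427, 414 and 404 among mutants, with control pool 3 the highest, as for *Tfrc*. Among the other genes of iron handling, r with *Tfrc* over the 6 pools was 0.912 for *Steap3* (rank 266 of 11457) and 0.872 for *Slc11a2* (rank 478). It was -0.822 for *Fth1* and -0.823 for *Ftl1*. These genes were chosen with the group difference known, and r carries that difference, so nothing is read from these values. The values for *Trf*, *Slc40a1*, *Aco1*, *Ireb2* and *Ncoa4* lay between -0.343 and 0.408.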

How the data were processed

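Whole lungs of E11.5dpc embryos were pooled by genotype, 3 or 4 lungs to a pool, and 3 control and 3 mutant pools were sequenced on the BGISEQ platform. Per the labels, the submitters' processing notes name Trim Galore, HISAT2, featureCounts and DESeq2 with the mm10 build, without versions. The authors deposited 1 table of signal values, normalized counts, in which the reads of a gene are scaled by library, and a mean column. The authors' deposited table also holds their own comparison, as log2 fold changes, a score (the test statistic) and p-values, none of which was used. Sample titles gave the condition and the replicate number.

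Log2(normalized count + 1) was compared between mutant and control pools by moderated linear models (limma 3.58.1, R 4.3.3, eBayes with the trend option). Genes entered if 3 or more libraries had a value of 1 or more. The Benjamini-Hochberg adjustment ran over all 17168 tested genes, at a threshold of 0.05. The paper names no package for this comparison, and the unit calls for a test on a log scale. The p-values set the difference between the groups against the spread between pools, which limma moderates across genes. Every library's values were whole multiples of its own step (100% within 0.01 reads), which gave 20197642 to 21276090 reads. The step of control pool 3, 0.994, lies too close to 1 for the rule used to accept recovered reads, so edgeR 4.0.16 and DESeq2 1.42.0 were run as alternatives on the other 5 libraries. Each test was tried on simulated data with known changes.

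The 10 genes and all gene lists were chosen by function with earlier results of these data known. Of the lists, 2 haem genes, 4 erythroid genes and 1 macrophage gene had no row in the table under the symbols used. Named genes are the 10, list genes with an adjusted p under 0.05 or else the lowest unadjusted p under 0.05 in each direction, known IRE transcripts, *Rptor*, leading markers and the 5 genes most like *Tfrc*. Others are named as examples of a list. Hairpins and positions come from GENCODE M21 (GRCm38, the mm10 assembly). Alternatives were edgeR, DESeq2, limma with no trend, scaling to the upper quartile (75th percentile), a stricter filter (10 or more in all libraries) or none, a pseudocount of 0.1, the replicate number as a block, and each pool left out in turn.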

Additional observations from a re-analysis of the deposited data

How the results depend on the processing

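Over all genes, 86 were called. The count was 8 without the trend in limma, 18 without a filter, 545 with edgeR and 416 with DESeq2 on 5 libraries, and between 1 and 468 when 1 pool was left out. Among the 83 tested iron genes outside the 10, the 1 call (*Scara5*) became 0 without the trend and 0 without a filter, 3 with edgeR and 2 with DESeq2, and 0 to 3 when 1 pool was left out. For the 10 genes, each log2 fold change moved by less than the spread between pools in all 14 alternatives. Of these, the fits without the trend, with a stricter filter, with no filter and with the replicate block leave it unchanged by design. For *Ftl1* the spread was wide (SD 0.35), with control pool 3 far below the others, and without that pool the value was 0.27. The sign changed in at least 1 alternative for *Trf*, *Slc40a1*, *Ireb2* and *Ncoa4*, whose values are near 0. The log2 ratio of *Tfrc* to *Fth1* and the marker list levels moved by less than their spread in the 7 alternatives run for each. With the replicate number as a block, 71 genes were called. The log2 fold change of *Tfrc* was the same, -0.54, as it must be with 1 control and 1 mutant pool for each number. Same-numbered control and mutant pools had correlations of -0.03, 0.19 and 0.07 in their deviations from the group means over 11430 genes, and not every pool correlated best with its own number, so the numbers were not taken to pair the pools. The log2 fold changes of *Fth1* (0.13) and *Slc11a2* (-0.18) were larger than the spread between pools (SD 0.06 and 0.07). Those of *Trf*, *Slc40a1*, *Ireb2* and *Ncoa4* were smaller than their spread. With 3 pools a group, differences as small as these remain uncertain.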
